A study of Mus musculus with 5 samples.

Results

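A set of 8 CXC chemokines, each detected in every library of the series, is described here by the cells that held their transcripts. They are Cxcl1, Cxcl2, Cxcl5, Cxcl10, Cxcl12, Cxcl13, Cxcl14 and Cxcl16, that is 8 of the 12579 genes listed in both deposited tables, and were taken by name. The cells came from advanced pancreatic tumours of KPPCN and KPPC mice, 7 to 8 weeks old, profiled as droplet single-cell 3′ libraries after removal of dead cells and depletion of CD45-positive leukocytes. As background, KPPC tumours lack Trp53 on both alleles wherever Pdx1-Cre was active, which is the lineage of the pancreas. KPPCN tumours share this background and in addition lack Nsdhl, an enzyme that removes C4 methyl groups on the way to cholesterol, in the same lineage. Cre driven by Pdx1 acts in the pancreatic epithelium, so stromal and blood cells of both genotypes keep the unrecombined alleles. There were 2 KPPCN libraries, named 1 and 2, and 3 KPPC libraries, named C3, D3 and H2, and each was taken as 1 tumour. The labels give 3 mice of each genotype, and any KPPCN animal besides these 2 was not analysed here.

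CXC chemokines are small secreted proteins that guide cells along concentration gradients through G protein-coupled receptors. A group with a short glutamate-leucine-arginine stretch ahead of the CXC cysteines, to which Cxcl1, Cxcl2 and Cxcl5 belong, acts on Cxcr2 and draws neutrophils, and in pancreatic cancer this axis is studied for the myeloid cells it brings into the tumour. Cxcl10 acts on Cxcr3 of activated T cells, Cxcl12 on Cxcr4 and Ackr3, Cxcl13 on Cxcr5 of B cells, and Cxcl16, which is made as a membrane protein and can be shed, on Cxcr6. Cxcl14 is a constitutively made member whose receptor use is less settled.

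The libraries, which held between 27449489 and 80354297 UMIs (unique molecular identifiers, counts of single transcripts), differed in depth and makeup. KPPCN 1 held 5377 cells with a median of 2230 UMIs per cell, whereas KPPCN 2 held 2010 cells with a median of 21789, and KPPC C3, D3 and H2 held 3774, 3278 and 2489 cells with medians of 17355, 19024 and 17892. Despite the depletion, KPPCN 1 held 1317 T/NK-like cells and 1077 B/plasma-like cells, whereas every other library held at most 42 and 9. In KPPCN 2, 808 cells fell in cluster 8, which was led by Flt1, Grem1 and Ankrd1 and held 818 cells in all. Only 82 epithelial-like cells were found in KPPCN (55 and 27), against 2010 in KPPC (526, 891 and 593). Nsdhl stood at 39.8 and 35.2 CPM (counts per 1000000 UMIs) in KPPCN epithelial-like cells, against 30.2, 23.9 and 28.7 CPM in KPPC. The sources used here do not say whether the deleted part of Nsdhl covers the 3′ end that was sequenced, so that this level does not check the genotype labels. Between 6 and 15 cell barcodes per library also occurred in another library.

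Cells were grouped into classes from marker genes, with all chemokine and chemokine receptor genes kept out of the clustering, and 22 of 29 clusters could be named. Clusters with mixed markers are given by number. Of these, cluster 3 was led by Saa3, Calca and Enpp2, cluster 9 by Serpinb2, Cryab and Rasl11a, cluster 14 by Enpp2, Igha and Saa3, cluster 19 by Igkc, Igha and Jchain, and cluster 22 by Lgals7, Tagln and Acta2. All 476 cells of cluster 14 came from KPPCN 1. Levels by class are UMIs summed over the cells of a library and class and given as CPM of the genes in both tables, wherever a library held at least 20 cells. Classes were drawn from the same cells and are described, not tested against each other. The chemokines also differ in length, but 3′ UMIs count transcripts and are not divided by length.

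Cxcl1, a neutrophil attractant, was highest in fibroblast-like cells among the named classes. It stood at 404 and 983 CPM in KPPCN fibroblast-like cells, against 1105, 714 and 461 CPM in KPPC, a mean of 733 ± 309 CPM (SD, n = 5 libraries). Mesothelial-like cells, the lining of the abdominal cavity, came next at 199 to 299 CPM, and the 5 libraries of these classes did not overlap. Cluster 3 reached 662 and 165 CPM in KPPCN and 668, 399 and 298 CPM in KPPC. Epithelial-like cells stood at 8.45 to 58.9 CPM. Free RNA in the droplets and remaining doublets can add to such levels, and their part was not estimated. B/plasma-like cells, which are not known as a source of Cxcl1, held 45.0 CPM in KPPCN 1, at a median of 1159 UMIs per cell against 3868 in fibroblast-like cells of that library. After every cell was thinned to 1000 UMIs, 25.7% of the fibroblast-like cells of KPPCN 1 had a Cxcl1 UMI, against 3.98% of its B/plasma-like cells. The unthinned shares were 49.4% and 5.48%, and shallower cells were left out of the thinned ones.

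Cxcl2, a close relative with the same receptor, had another source. Neutrophil-like cells held 12488 CPM in KPPCN 1 and 26053 CPM in KPPCN 2, from only 15 and 13 cells, against 12810, 16486 and 35419 CPM in the KPPC libraries C3, D3 and H2. The next named class was mesothelial-like at 121 to 741 CPM. Cluster 19, which also held S100a8 and S100a9 among its leading genes, stood at 464 CPM in KPPCN 1 and 2028 CPM in KPPC C3. Because neutrophil-like cells were few, between 21 and 37 per KPPC library, they gave only 7.51 and 4.04% of all Cxcl2 UMIs in KPPCN and 9.02, 2.36 and 10.98% in KPPC. Cluster 19 gave 15.6% in KPPCN 1, 4.65% in KPPC C3 and 2.28% in KPPC D3. In KPPCN 2, cluster 8 at 314 CPM gave 45.1% of the Cxcl2 UMIs and Cdkn2a/Hmga2-high cells gave 28.9%. These were below their shares of all UMIs of that library, 47.1% and 32.4%. In KPPC, cluster 3 gave 43.7% in D3 and 30.6% in H2, from 16.9% and 9.51% of all UMIs. Fibroblast-like cells gave 43.4% in C3, from 36.6% of all UMIs. Transcripts of Cxcl2 share 73 windows of the read length of 98 bases with Cxcl3, a gene listed only in the KPPCN table, so that reads of these neighbours may not always have been told apart. No such window was shared by any other pair among the 8 genes and Cxcl3.

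Cxcl5, the third ligand of Cxcr2, was highest in epithelial-like cells among the named classes of each KPPC library, but not in KPPCN. Levels there were 79.7 and 75.5 CPM in KPPCN, from 56 and 45 UMIs, against 156, 203 and 202 CPM in KPPC. Mesothelial-like cells stood at 115.5 and 15.7 CPM in KPPCN and 49.2, 93.6 and 56.9 CPM in KPPC, and were the highest named class in KPPCN 1. Fibroblast-like cells stood at 11.7 and 108 CPM in KPPCN and 30.4, 71.8 and 74.3 CPM in KPPC, and were the highest in KPPCN 2. Cluster 3, which was not named, stood above these classes in each library, at 164 and 132 CPM in KPPCN and 179, 229 and 238 CPM in KPPC. No Cxcl5 UMI was seen in neutrophil-like cells of any library, for which the exact 95% Poisson interval in the largest of them reached 39.1 CPM. In each KPPC library the 3 ligands of Cxcr2 thus peaked in 3 different named classes, fibroblast-like for Cxcl1, neutrophil-like for Cxcl2 and epithelial-like for Cxcl5, whereas in KPPCN 2 Cxcl1 and Cxcl5 were both highest in fibroblast-like cells among classes with at least 20 cells.

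The promoters of Cxcl1, Cxcl2 and Cxcl10 are shown because they hold a κB-like motif, the kind of site that NF-κB binds in inflammatory genes. The motif was searched as GGGA, any 2 bases, then TTCC, on both strands in the 250 bases before each RefSeq start in GRCm38.p6. It was found in 1.21% of 32851 such windows, and in 3 of the 6 members with an entry. In Cxcl1 it lies 71 bases and, on the other strand and overlapping, 70 bases before the start, in Cxcl2 97 and 96 bases, and in Cxcl10 159 bases before it. An interferon-response-like motif, GAAA, any 2 bases, then GAAA, was searched likewise and found in 2.98% of windows and in Cxcl10 at 213 and Cxcl14 at 172 bases before the start. Neither was in the windows of Cxcl12 and Cxcl13. A match describes letters in this window and not a bound site. The windows are chr5:90890995-90891244 (plus strand), chr5:90903649-90903898 (plus strand) and chr5:92348890-92349139 (minus strand), written 5′ to 3′ with the motif letters in capitals.
Cxcl1: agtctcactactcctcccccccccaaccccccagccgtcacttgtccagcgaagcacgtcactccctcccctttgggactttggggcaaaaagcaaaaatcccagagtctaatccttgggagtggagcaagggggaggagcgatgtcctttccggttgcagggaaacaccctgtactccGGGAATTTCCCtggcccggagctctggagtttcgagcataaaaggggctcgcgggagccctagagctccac
Cxcl2: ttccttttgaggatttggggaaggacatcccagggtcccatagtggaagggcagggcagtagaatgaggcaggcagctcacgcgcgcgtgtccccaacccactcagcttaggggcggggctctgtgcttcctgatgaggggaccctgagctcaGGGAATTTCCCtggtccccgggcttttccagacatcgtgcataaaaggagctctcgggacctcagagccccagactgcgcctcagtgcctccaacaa
Cxcl10: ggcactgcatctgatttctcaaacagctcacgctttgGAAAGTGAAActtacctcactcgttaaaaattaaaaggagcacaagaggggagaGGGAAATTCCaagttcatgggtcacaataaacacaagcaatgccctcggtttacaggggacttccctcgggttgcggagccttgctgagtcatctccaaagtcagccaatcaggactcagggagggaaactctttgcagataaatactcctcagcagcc

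In the GENCODE M21 annotation of GRCm38, 5 of the 8 genes lie on chromosome 5. Cxcl5 (chr5:90759360-90761624), Cxcl1 (chr5:90891241-90893115) and Cxcl2 (chr5:90903871-90905938) lie in this order on the plus strand. Cxcl10 (chr5:92346638-92348889, minus strand) and Cxcl13 (chr5:95956951-95961068, plus strand) lie farther along. Cxcl12 is at chr6:117168535-117181367 on the plus strand, Cxcl14 at chr13:56288643-56296551 and Cxcl16 at chr11:70453983-70459984, both on the minus strand.

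Cxcl10, an interferon-induced ligand of Cxcr3, was spread over several stromal classes. Fibroblast-like cells stood at 127 and 180 CPM in KPPCN and 159, 196 and 91.2 CPM in KPPC, and mesothelial-like cells at 121 and 166 CPM in KPPCN and 165, 129 and 122 CPM in KPPC, so that neither class was above the other. The highest level with at least 20 cells was in cluster 14 of KPPCN 1, at 717 CPM with an exact 95% Poisson interval of 685 to 750 CPM. Cxcl10 UMIs were unevenly spread between cells. In Cdkn2a/Hmga2-high cells of KPPC H2, at 222 CPM, a single cell held 90.4% of the UMIs, and in endocrine-like cells of that library, at 219 CPM, a single cell held 78.2%.

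Among named classes Cxcl16 was highest in epithelial-like cells, at 179 and 272 CPM in KPPCN and 221, 316 and 256 CPM in KPPC. Mesothelial-like cells overlapped with them at 153 to 213 CPM, and cluster 3 lay between 202 and 263 CPM. Within the epithelial-like class, cluster 6, led by Epcam and Pyy, stood at 340, 402 and 305 CPM in the KPPC libraries C3, D3 and H2, against 156, 212 and 216 CPM in cluster 5, led by the gastric genes Tff2 and Reg1. Cxcl5 had the reverse order in each KPPC library, at 139, 181 and 160 CPM in cluster 6 and 166, 229 and 236 CPM in cluster 5. Fibroblast-like cells held 56.1 to 82.6 CPM of Cxcl16, the narrowest range of any member in that class.

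Cxcl12, which retains Cxcr4-bearing cells, was highest in fibroblast-like cells among the named classes. It stood at 162 and 266 CPM in KPPCN, against 483, 836 and 244 in KPPC. Endothelial-like cells followed at 70.5 to 158 CPM in the 4 libraries with at least 20 of them, and cluster 9 reached 395 CPM in KPPCN 2. Epithelial-like cells stood at 6.76 to 20.9 CPM over all libraries. In KPPCN 1, the only library with at least 20 B/plasma-like cells, they stood at 12.8 CPM, near the 11.99 CPM of B/plasma-like cells. The endothelial level of KPPCN 2, 155 CPM, rested on a single cell that held 93.8% of its UMIs. Among the endothelial clusters, cluster 16, led by Emcn and Plvap, stood at 142, 166 and 129 CPM in the KPPC libraries C3, D3 and H2. Cluster 21, led by Nts, Lyve1 and Prox1, genes of lymphatic vessels, stood at 17.7 CPM in C3 and 21.3 CPM in H2.

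Cxcl13, the B cell attractant, was highest in clusters that were not named. Cluster 3 held 1181 and 928 CPM in KPPCN, from 20 and 24 cells, against 2826, 1954 and 6880 CPM in KPPC. Cluster 14, seen in KPPCN 1 alone, held 5347 CPM with an exact 95% Poisson interval of 5259 to 5436 CPM, and 69.0% of its thinned cells had a Cxcl13 UMI. Both clusters shared Saa3, Enpp2 and Nkain4 among their 10 leading genes. Cluster 22 held no Cxcl13 UMI in KPPCN 2, from 35 cells, against 1053, 1087 and 3023 CPM in KPPC. These KPPC levels rested on 112, 112 and 239 UMIs, because the cells of cluster 22 were shallow. They made up 1.245, 1.098 and 0.844% of the cells of C3, D3 and H2 but 0.132, 0.136 and 0.156% of all UMIs. In KPPCN 2 these shares were 1.741% and 0.153%. The part of free RNA in the levels of cluster 22 was not estimated. Among named classes, mesothelial-like cells stood at 183 and 10.2 CPM in KPPCN and 220, 197 and 653 CPM in KPPC. A level of 407 CPM in erythroid-like cells was found in KPPC C3 only, where a single cell held 97.3% of the UMIs. B/plasma-like cells of KPPCN 1 held 77.2 CPM and T/NK-like cells 59.3 CPM, their highest levels among the 8 genes, while fibroblast-like cells of that library stood at 79.9 CPM. The fibroblast level in KPPCN 1 was thus close to that of lymphocytes.

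Among named classes Cxcl14 was highest in fibroblast-like cells, at 393 and 156 CPM in KPPCN and 313, 697 and 853 CPM in KPPC. Pericyte-like cells, present in sufficient number in KPPC alone, stood at 66.9, 82.0 and 104 CPM in C3, D3 and H2. Epithelial-like cells, at 3.36 to 14.2 CPM, did not exceed the 15.7 CPM of B/plasma-like cells in KPPCN 1.

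**Figure D1:**
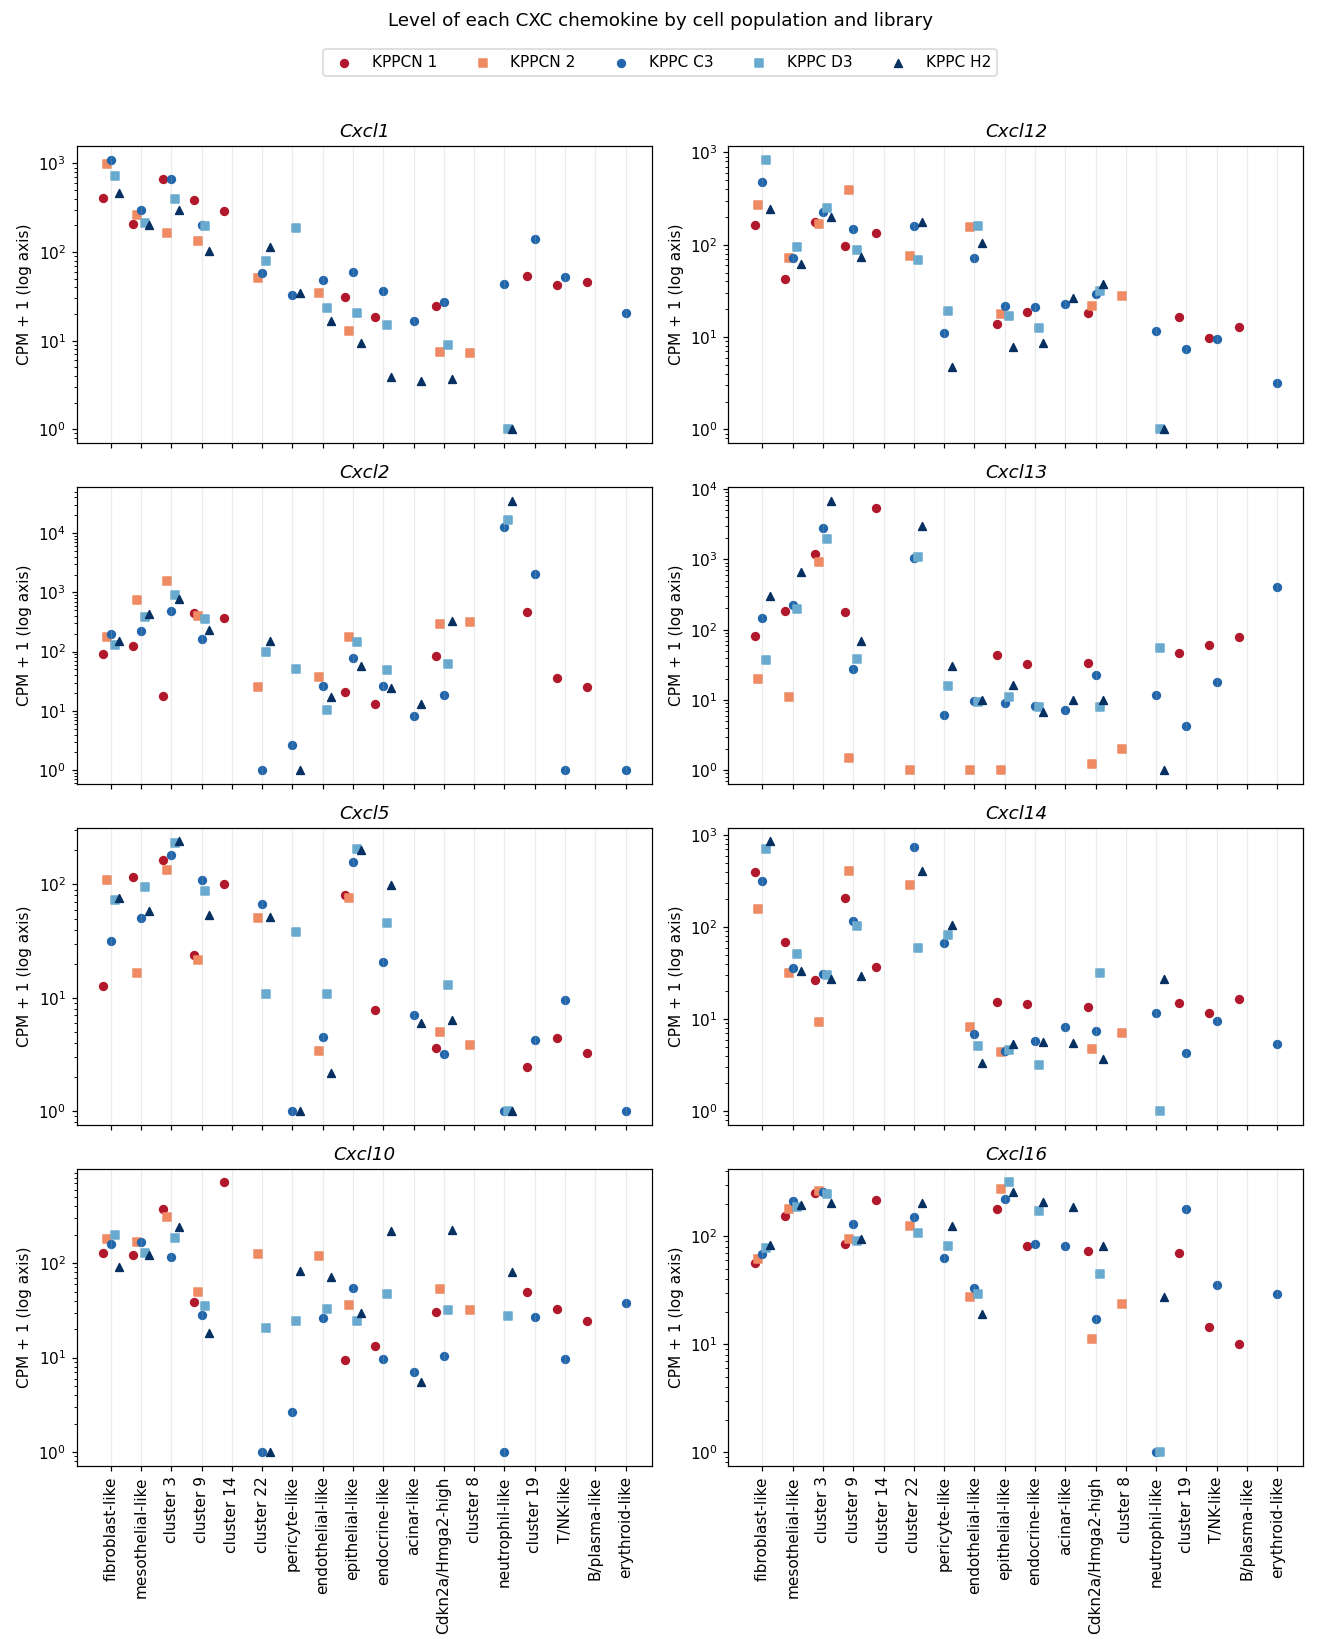
Each panel shows 1 chemokine, with cell populations along the horizontal axis and the level on a log axis (CPM + 1), 1 point per library with at least 20 cells, KPPCN in red and orange and KPPC in blues. Cxcl2 peaks in neutrophil-like cells at 12810 to 35419 CPM in the 3 KPPC libraries. Among named classes Cxcl1, Cxcl12 and Cxcl14 peak in fibroblast-like cells, although unnamed clusters are higher in places: cluster 3 in KPPCN 1 for Cxcl1 (662 CPM) and Cxcl12 (177 CPM), cluster 9 in KPPCN 2 for Cxcl12 (395 CPM) and Cxcl14 (402 CPM), and cluster 22 for Cxcl14 in KPPCN 2 (284 CPM) and KPPC C3 (743 CPM). Cxcl13 is high in cluster 3, in cluster 14 and, in KPPC, in cluster 22. The cells of cluster 22 were shallow, and its Cxcl14 levels named here rest on 23 UMIs in KPPCN 2 and 79 in KPPC C3.

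The 5 clusters of the fibroblast-like class held different members. Cxcl1 was high in cluster 0, led by Dpt, Dcn and Sfrp4, at 723 and 1173 CPM in KPPCN and 1483, 1321 and 853 CPM in KPPC. Only 1 library of each genotype held at least 20 cells of cluster 20. It stood at 451 CPM in KPPCN and at 1500 CPM in KPPC, above cluster 0 of every library in the latter. Cluster 2 stood at 389 CPM in KPPCN 1, the only library with at least 20 of its cells. Cluster 7, led by Sfrp1, A2m and Spon1, stood at 247 and 910 CPM in KPPCN and 225, 534 and 373 CPM in KPPC, below cluster 0 in each of the 5 libraries. Cxcl12 had the same order in each library. It stood at 409 and 368 CPM in KPPCN and 670, 2110 and 579 CPM in KPPC in cluster 0, against 48.0 and 170 CPM in KPPCN and 198, 379 and 170 CPM in KPPC in cluster 7. Cxcl14 ran the other way. Cluster 7 held 2413 and 288 CPM of Cxcl14 in KPPCN and 1847, 1362 and 1142 CPM in KPPC, against 239 and 58.7 CPM in KPPCN and 33.2, 115 and 97.8 CPM in KPPC in cluster 0. Cluster 10, led by H19 and Hsd11b1, was also above cluster 0 for Cxcl14 in KPPC, at 280, 471 and 924 CPM in C3, D3 and H2, and low for Cxcl12, at 56.3, 16.8 and 35.7 CPM. In KPPCN 1 it was below cluster 0 for Cxcl14, at 157 CPM from 46 cells. Cxcl10 stood at 32.5 and 55.8 CPM in KPPCN and 27.9, 35.5 and 21.6 CPM in KPPC in cluster 7, against 112 and 309 CPM in KPPCN and 165, 303 and 272 CPM in KPPC in cluster 0.

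**Figure D2:**
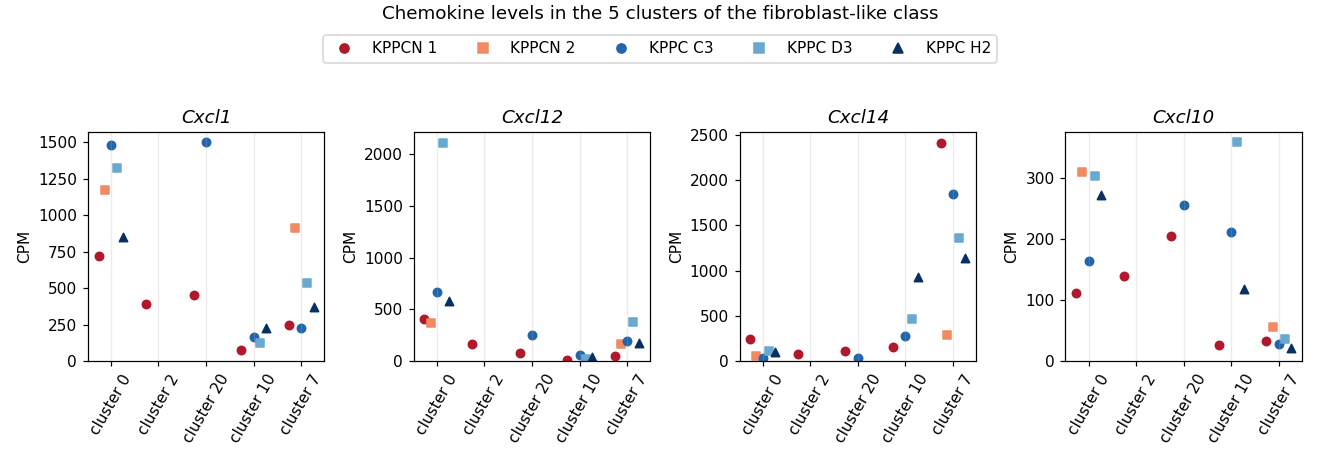
Each panel shows 1 chemokine in the 5 clusters of the fibroblast-like class (CPM, linear axis from 0), 1 point per library with at least 20 cells of the cluster. In all 5 libraries Cxcl1 and Cxcl12 are higher in cluster 0 than in cluster 7, and Cxcl14 is higher in cluster 7, with KPPCN 2 at 288 CPM the lowest there.

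The share of all UMIs that a population gave depends on its number of cells as well as on its level. Fibroblast-like cells gave 63.9 and 85.6% of the Cxcl1 UMIs in KPPCN and 81.4, 27.8 and 63.2% in KPPC, and 83.7 and 43.7% of the Cxcl14 UMIs in KPPCN and 90.5, 62.1 and 94.8% in KPPC. D3, which had the fewest fibroblast-like cells of the KPPC libraries, drew 34.0% of its Cxcl1 from cluster 3. Epithelial-like cells gave 7.74 and 4.86% of the Cxcl5 UMIs in KPPCN and 47.0, 46.5 and 52.3% in KPPC. In KPPCN 1 the leading source of Cxcl5 was cluster 14 with 36.2%, and in KPPCN 2 it was fibroblast-like cells with 66.1%. Cxcl13 came from cluster 14 for 86.99% in KPPCN 1, whereas cluster 3 gave 75.4% in KPPCN 2 and 68.3, 88.0 and 77.6% in KPPC. Cluster 9 gave 42.0% of the Cxcl14 UMIs and 23.2% of the Cxcl12 UMIs of KPPCN 2.

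**Figure D3:**
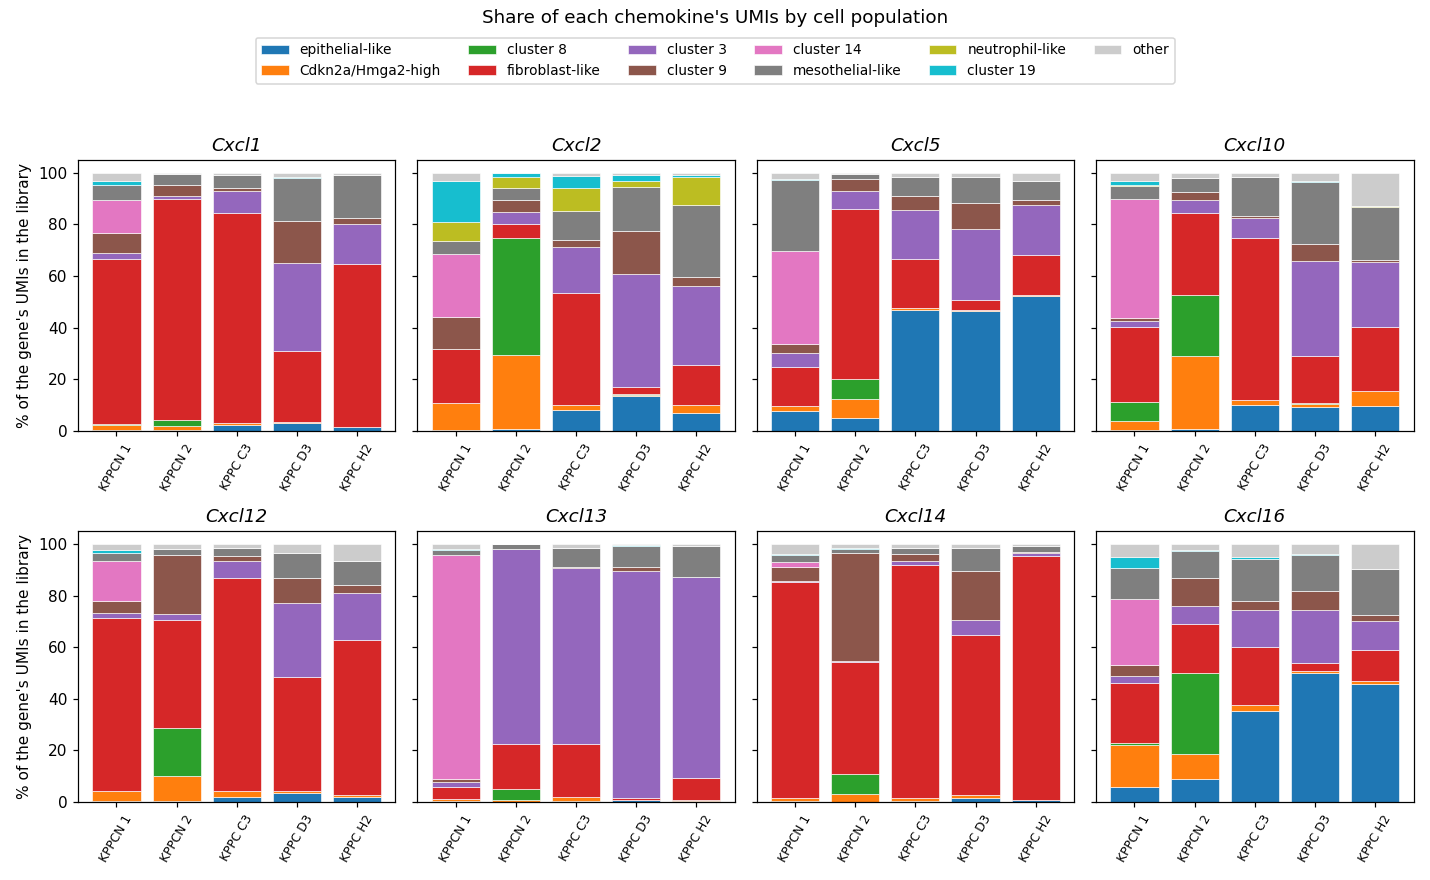
Stacked bars give the percentage of a chemokine's UMIs that came from each population, with libraries along the horizontal axis, KPPCN left of KPPC. The epithelial-like part of Cxcl5 is 7.74 and 4.86% in KPPCN, against 46.5 to 52.3% in KPPC, and cluster 14 makes up 86.99% of Cxcl13 in KPPCN 1.

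Over all cells of a library, 7 of the 8 members had a negative KPPCN minus KPPC difference, but none was called. Sums over all cells cannot tell fewer cells of a type from less RNA per cell. Genotypes were compared with limma on log2(CPM + 5) across all genes, with Benjamini-Hochberg adjustment at 0.05, and 1.28% of 11413 genes were called over all cells. The median difference of the members was -0.85, against 0.00027 for all genes tested on the log2 scale. Leaving out KPPC C3, D3 or H2 left 0 genes called over all cells, and leaving out KPPCN 1 or KPPCN 2 gave 4251 and 310.

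Cxcl5 stood at 26.7 and 17.5 CPM over all cells in KPPCN, against 58.6, 141 and 117 in KPPC, and the genotypes did not overlap. The log2 difference was -1.99 with a standard error of 0.39 and a limma adjusted p of 0.0806. Without KPPCN 1 it was -2.24, where a single KPPCN library remained. Cxcl16 stood at 82.1 and 34.2 CPM in KPPCN, against 111, 204 and 170 in KPPC, again with no overlap (log2 difference -1.49, SE 0.42, limma adjusted p = 0.157). Cxcl12, at 83.1 and 67.9 CPM in KPPCN and 214, 146 and 102 CPM in KPPC, did not overlap either (log2 difference -0.94, SE 0.32, limma adjusted p = 0.223). These 3 of 8 members lay below all KPPC libraries, where 20.6% of all genes did so. Two-sided exact permutation tests over the libraries gave p = 0.2 for each of the 3 genes, or 0.533 adjusted over the 8 members. With 3 libraries against 2 the smallest possible p is 0.1. Epithelial-like cells, the named class highest in Cxcl16 in each library and in Cxcl5 in each KPPC library, numbered 82 in KPPCN and 2010 in KPPC, and the part of this difference in the sums was not tested.

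The other members overlapped over all cells. Cxcl13 stood at 594 and 11.3 CPM in KPPCN, against 259, 376 and 843 in KPPC, so that the KPPCN libraries were farther apart than the genotypes. Cxcl10 stood at 150 and 60.4 CPM in KPPCN, against 93.0, 83.3 and 90.5 in KPPC. Cxcl1, Cxcl2 and Cxcl14 had exact permutation p values of 0.6, 0.8 and 0.6.

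Within populations, the fall of Cxcl5 in cluster 9 was the only call among the members. Levels are given as CPM after trimmed-mean scaling (scaled CPM). Cxcl5 stood at 23.1 and 20.2 scaled CPM in KPPCN, against 106, 85.6 and 54.1 scaled CPM in KPPC (log2 difference -1.69, SE 0.30, limma adjusted p = 0.0432), where 0.554% of 9383 genes were called, 0.405% in this direction. Of all genes there, 13.8% lay below every KPPC library. The KPPCN levels rested on 26 and 43 UMIs, and a single cell held 69.2% of the UMIs in KPPCN 1. In KPPC H2 a single cell held 59.4% of 106 UMIs. The 10 epithelial markers summed to 143 and 214 CPM in cluster 9 of KPPCN, against 488, 802 and 478 CPM in KPPC, so that they moved with Cxcl5, and their part in the difference was not tested. All 10 were above 0 except Epcam and Elf3 in KPPCN 2. The call was lost without KPPCN 1, KPPCN 2, KPPC C3 or KPPC D3 (limma adjusted p = 0.0802, 0.325, 0.0818 and 0.114), at a pseudocount of 1 CPM (limma adjusted p = 0.0555), on plain totals (limma adjusted p = 0.0583) and in the matching cluster at resolution 2 (log2 difference -1.73, limma adjusted p = 0.0518).

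Epithelial-like cells gave the same order for Cxcl5 without passing the test. The scaled levels were 81.6 and 72.2 CPM in KPPCN, against 160, 201 and 207 in KPPC, and did not overlap, where 18.1% of all genes lay below every KPPC library (log2 difference -1.24, SE 0.24, limma adjusted p = 0.679, unadjusted p = 0.00093). No gene was called there, that is 0% of 11269, although 817 had an unadjusted p under 0.05. Cluster 3 likewise had 167 and 130 scaled CPM of Cxcl5 in KPPCN, against 178, 227 and 245 in KPPC (log2 difference -0.58, SE 0.27, limma adjusted p = 0.776). In fibroblast-like and mesothelial-like cells the libraries overlapped for Cxcl5, with differences of -0.52 and -0.28.

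Cluster 3 held the most members without overlap, with 4 below and 1 above all KPPC libraries, where 19.8% and 13.3% of all genes lay so. No gene was called, that is 0% of 10555 by limma at an adjusted p under 0.05, and 668 had an unadjusted p under 0.05. Cxcl13 stood at 1198 and 915 scaled CPM in KPPCN, against 2813, 1938 and 7067 in KPPC (log2 difference -1.71, SE 0.46, limma adjusted p = 0.366). Cxcl10 was the member that lay above, at 381 and 304 scaled CPM in KPPCN, against 116, 180 and 245 in KPPC (log2 difference 0.92, SE 0.30, limma adjusted p = 0.574). Cxcl14, at 25.7 and 8.11 scaled CPM in KPPCN and 29.9, 29.2 and 27.1 in KPPC, and Cxcl12, at 180 and 164 scaled CPM in KPPCN and 223, 244 and 202 in KPPC, lay below. These KPPCN values came from 20 and 24 cells. The 476 cells of cluster 14, all from KPPCN 1, were not part of this fit. That cluster shared Saa3, Enpp2 and Nkain4 with cluster 3 among its leading genes and held 5347 CPM of Cxcl13 before scaling.

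Cluster 9 had 3 members above all KPPC libraries, where 14.6% of genes lay so. Cxcl14 stood at 213 and 398 scaled CPM in KPPCN, against 114, 101 and 29.6 in KPPC (log2 difference 1.92, SE 0.45, limma adjusted p = 0.116). On sums of cells thinned to 1000 UMIs it was 2.16 with a limma adjusted p of 0.0126, where 6 of 1204 genes were called higher and 6 lower. Cxcl2 stood at 453 and 398 scaled CPM in KPPCN, against 157, 357 and 242 in KPPC (log2 difference 0.80, SE 0.31, limma adjusted p = 0.346), and thinning turned its direction to -0.0799. Cxcl10, at 38.3 and 47.9 scaled CPM in KPPCN and 26.8, 34.0 and 17.9 in KPPC, had a limma adjusted p of 0.387.

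In fibroblast-like cells 0 of 8 members were called, where 0.117% of 11078 genes were. Of all genes there, 13.6% lay below and 15% above every KPPC library. Only Cxcl16 did not overlap, at 54.0 and 63.5 scaled CPM in KPPCN, against 67.9, 74.1 and 87.6 in KPPC (log2 difference -0.36, SE 0.17, limma adjusted p = 0.510). Cxcl12 and Cxcl14 had larger differences of -1.14 (SE 0.45) and -1.18 (SE 0.48), with limma adjusted p values of 0.449 and 0.462, and overlapped. Within single clusters of the class, fits added after the clusters were seen, Cxcl12 of both KPPCN libraries lay below every KPPC library in cluster 0 (log2 difference -1.29, limma adjusted p = 0.710) and in cluster 7 (-1.16, limma adjusted p = 0.984), where 11.9% and 10.7% of genes lay so. In cluster 7 this was a near tie, with KPPCN 2 at 178.4 and KPPC H2 at 179.2 scaled CPM. Cxcl14 overlapped in both clusters, with a difference of 0.63 in cluster 0 and -0.73 in cluster 7 (limma adjusted p = 0.917 and 0.987), so that its direction turned in cluster 0. The differences of Cxcl1 and Cxcl10 were -0.19 (SE 0.45) and 0.08 (SE 0.30). KPPCN 1 drew 1259 of its 1659 fibroblast-like cells from cluster 2, which held 1268 cells in all.

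In mesothelial-like cells no gene was called, that is 0% of 11020 by limma at an adjusted p under 0.05, with 1237 at an unadjusted p under 0.05, and 17.3% of genes lay below every KPPC library. Cxcl13, at 187 and 10.3 scaled CPM in KPPCN against 219, 194 and 664 in KPPC, and Cxcl16, at 156 and 181 against 211, 182 and 199 in KPPC, lay below without overlap. At the coarser resolution of 0.5 the Cxcl13 difference was -2.95 with a limma adjusted p of 0.0336, against -2.27 and 0.413 here. In that setting 69 of 11247 genes were called higher and 98 lower. The classes were redrawn there and need not hold the same cells. All 1139 cells of cluster 3, which was high in Cxcl13, fell in a single cluster of 2486 cells at that resolution. In Cdkn2a/Hmga2-high cells, where 0% of 10618 genes were called by limma and 475 had an unadjusted p under 0.05, 8.51% lay below every KPPC library. Among these, Cxcl12 stood at 17.5 and 21.3 scaled CPM in KPPCN, against 30.6, 29.6 and 33.6 in KPPC (log2 difference -0.56, SE 0.21, limma adjusted p = 0.946). Cxcl1, by comparison, differed by 0.02 (SE 0.63) in these cells and by 0.02 (SE 0.22) in mesothelial-like cells.

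**Figure D4:**
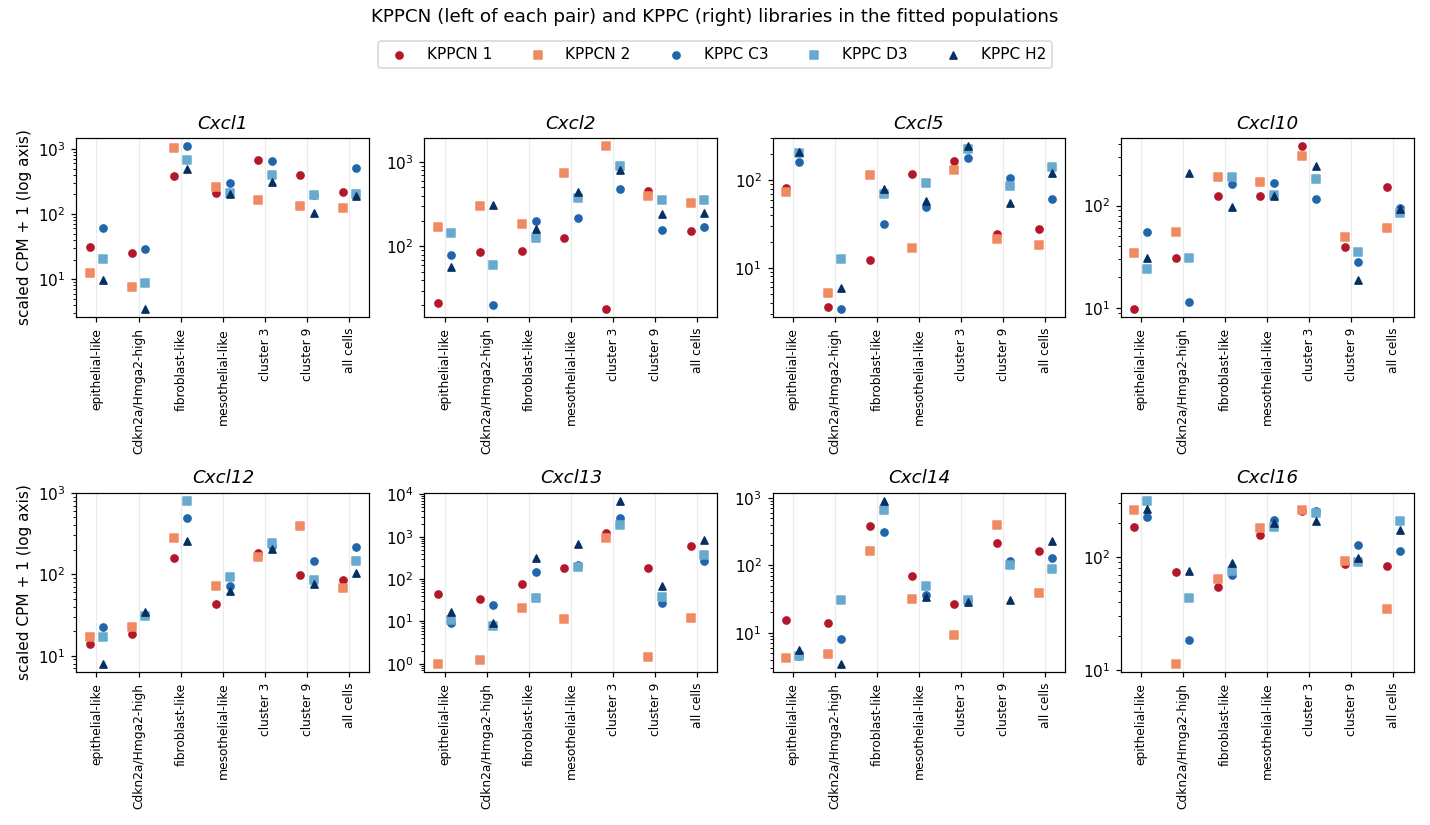
Each panel shows 1 chemokine in the 7 fitted populations on a log axis (scaled CPM + 1), with KPPCN libraries left and KPPC libraries right in each pair. Cxcl5 is the member whose KPPCN libraries lie below KPPC in 4 of the 7 populations (epithelial-like, cluster 3, cluster 9 and all cells).

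Receptor genes could be compared for Ackr3 alone, a scavenger of Cxcl12, because Cxcr1 to Cxcr6 are listed only in the KPPCN table and Ackr1 and Ackr2 were not kept in every KPPC library. In fibroblast-like cells, the named class highest in Cxcl12, Ackr3 stood at 118 and 143 scaled CPM in KPPCN, against 96.0, 54.0 and 69.5 in KPPC (log2 difference 0.80, limma adjusted p = 0.388). Before scaling, endothelial-like cells stood above fibroblast-like cells in each KPPC library, at 120, 63.3 and 67.9 CPM against 95.4, 56.4 and 65.5 CPM, and below them in KPPCN 2, at 87.1 against 137 CPM. In KPPCN 1, Cxcr4 stood at 220 CPM in B/plasma-like and 60.8 CPM in T/NK-like cells, Cxcr5 at 120 CPM in B/plasma-like cells, and Cxcr3 and Cxcr6 at 33.3 and 25.2 CPM in T/NK-like cells.

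Of the other CXC ligands, Cxcl17 was tested over all cells, where 1.16% of genes were called lower, and fell, at 1.78 and 0.28 scaled CPM in KPPCN, against 7.66, 12.6 and 10.7 in KPPC (log2 difference -1.34, limma adjusted p = 0.0484), a call lost without KPPC C3, D3 or H2. In epithelial-like cells its difference was -0.02. None of the tested list genes (3 or 4 for ligand processing, 7 to 9 for NF-κB inducers and feedback and 7 or 8 for the interferon response, by population) was called over all cells or in another fitted population. Over all cells the median difference was -0.51 for the NF-κB list and 0.06 for the interferon list. Neutrophil-like cells, the peak of Cxcl2, were also the named class highest in Il1a, Nfkbia, Nfkbiz, Tnfaip3 and Zc3h12a in each KPPC library. Nfkbia, the inhibitor that NF-κB induces, averaged 4397 CPM there in the 3 KPPC libraries.

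The genes whose levels followed each member most closely were ranked by Pearson's r over 59 library and population sums of 19 populations, which share libraries and depth, as a description. Cxcl1 was followed by Cpz (r = 0.912), Fndc1 and C1s1, Cxcl12 by Abi3bp (r = 0.864), Igf1 and Adamtsl1, and Cxcl14 by Olfml3 (r = 0.864), Ctsk and C1qtnf7. Cxcl2 was followed by Ptgs2 (r = 0.799), the inducible cyclooxygenase, Nfe2l2 and Cebpb. Cxcl5 was followed by Fgfr2 (r = 0.758), Rdh10 and Tcea3, and Cxcl16 by Ddr1 (r = 0.821), Morn2 and Echs1. Cxcl13 was followed by Enpp2 (r = 0.844), Saa3 and A530020G20Rik, and Cxcl10 by Arhgap20 (r = 0.706), the lowest leading r of the 8 members, Cc2d2a and Pkia.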

How the data were processed

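The 2 deposited tables hold droplet single-cell 3′ libraries, 2 of KPPCN and 3 of KPPC tumours. Each deposited value is the natural log of 1 plus UMIs per 10000, as the sums of each cell show. Without giving their roles, the submitters' processing notes list Seurat 3.0.2, R 3.5.1, Cell Ranger 2.1.0 and the build GRCm38. The KPPC column codes C3, D3 and H2 show the group but match no sample's number, and each was taken as 1 KPPC library. UMIs were recovered from the smallest step of each cell, and 100% came out whole within 0.01 UMI. In KPPC, genes had been filtered per library and filled with 0 (275, 418 and 1036 genes at 0 in every cell of C3, D3 and H2), so fits used the 11413 genes above 0 in all 3. The KPPCN table listed 31053 genes.

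Barcodes with under 500 genes or over 20% mitochondrial UMIs were left out (801 of 17771). The doublet caller marked 42 cells (0.247%) and so has not worked, and doublets can remain among the 16928 cells used. Clusters came from scanpy 1.11.5 with the Leiden method at resolution 1 (2000 variable genes, 30 components, 20 neighbours), without 29 chemokine and receptor genes. A cluster was named where its marker score reached 1.5, led the next by 0.5 and rested on at least 3 raised markers, unless a marker of another class was among its 2 leading genes, markers of a different class outnumbered its own among the 10 leading genes, or its cells were shallow and none of its markers was among those genes. This left clusters 3 and 8 unnamed. The rule was set after the clusters were seen. Sums of at least 20 cells were fitted with limma 3.58.1 on log2(CPM + 5), which understates changes of low genes, with trimmed-mean scaling, precision weights and Benjamini-Hochberg adjustment at 0.05. Genes needed 10 UMIs at the median total and 15 in all. Nothing beyond the labels says whether libraries are separate animals, and p-values measure the spread between these libraries. Intervals cover counting error only. The members and lists were chosen with earlier results of these data known. Named genes are the members, list genes past the test or highest in any class, and the 3 genes most like each member. Promoters are RefSeq sequences (GRCm38.p6), and 6 of 8 members had an entry, which Cxcl5 and Cxcl16 did not match.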

Additional observations from a re-analysis of the deposited data

Results flagged for a closer look

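Cxcl14 differences between genotypes had opposite signs in clusters 9 and 3. The KPPCN values were all above those of KPPC in cluster 9 (log2 difference 1.92) and all below them in cluster 3 (-0.96), a gap of 2.89 between the log2 differences. Neither difference passed the test (limma adjusted p = 0.116 and 0.662), and in cluster 3 the KPPCN values rest on 6 and 4 UMIs, with KPPCN 1 at 25.7 scaled CPM beside 27.1 in KPPC H2. The gap itself was not tested.

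Genes of the chemokine pathway that are listed only in the KPPCN table gave UMIs outside the comparisons. Over both KPPCN libraries, Cxcl3 had 285, Cxcl15 4 and Ppbp 13 UMIs among ligands. Among receptors, Cxcr1 had 6, Cxcr2 33, Cxcr3 142, Cxcr4 1019, Cxcr5 211 and Cxcr6 105. Il1b, an inducer of several members, had 1517 and Ctsg, a neutrophil protease, had 96. Cxcl3 was found mostly in KPPCN 2, with 250 UMIs, of which 148 lay in cluster 8. No level of these genes in KPPC was analysed here.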

How the results depend on the processing

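Of 194 alternatives over 17 member differences whose genotypes did not overlap, 182 kept direction and side of the threshold. Of the rest, 7 lost the call, all for Cxcl5 in cluster 9, 4 gained one and 1 turned direction. That was Cxcl2 in cluster 9 on thinned cells (-0.0799), and the cause was not tested. These differences were picked for not overlapping, so leaving out a library could hardly turn a direction. All but Cxcl5 in cluster 9 were uncalled at the start, so keeping the side mostly means staying uncalled. Counts of called genes moved most. Over all cells, 146 became 76 with plain totals, 92 without the highest doublet scores (a setting chosen after seeing the data) and 0 to 4251 when a library was left out (4251 without KPPCN 1 and 0 without KPPC C3, D3 or H2). In cluster 9, 52 became 16 with a pseudocount of 1 CPM, 23 with plain totals, 12 on thinned cells, 30 without the highest doublet scores and 3 to 103 without a library. In fibroblast-like cells, 13 became 7 with a pseudocount of 1 CPM, 7 without a filter, 0 with plain totals, 6 without weights, 27 on thinned cells, 0 at resolution 0.5, 0 without the highest doublet scores, 27 within cluster 0, 0 within cluster 7 and 0 to 54 without a library. Where none was called, leaving out a library gave 0 to 2 in epithelial-like cells, 0 to 30 in mesothelial-like cells, 0 to 232 in Cdkn2a/Hmga2-high cells and 0 to 8 in cluster 3, thinning gave 2 in epithelial-like cells, and resolution 0.5 gave 167 in mesothelial-like cells. A lone KPPCN library was assumed to vary like the others. These causes were not tested.

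Of 56 alternatives for the class with the highest level, 51 kept the class. Only the name of the class with the highest mean was compared, and the spread between libraries was not. The Cxcl10 class at 151 CPM became erythroid-like at 193 CPM at resolution 2, and leaving out a library gave 143 to 166 CPM, with mesothelial-like cells highest without D3. The Cxcl13 class, erythroid-like at 407 CPM in 1 library, became mesothelial-like at 924 CPM at resolution 0.5 and 1218 CPM at resolution 2, and leaving out a library gave 261 to 407 CPM. At resolution 2, clusters sharing 0.975 and 0.98 of all cells in either were found for clusters 3 and 9 (a match chosen after seeing the data). That of cluster 9 had 35 called genes, against 52, and that of cluster 3 held only 16 KPPCN 1 cells and was not fitted. At 0.5 the best shares were 0.458 and 0.297, too low for a match, and the only cluster named epithelial-like held no KPPCN cell. No paired analysis was possible because the KPPC codes carry no replicate number.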
